A study of Mus musculus and Sus scrofa with 12 samples.

Results

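Histone H3 monomethylated at lysine 4 (H3K4me1) was compared between embryonic forelimbs of mouse and pig. The members are all peaks of the deposited mouse and pig H3K4me1 lists, 69962 and 103373, together 173335 of the 258842 peaks in the 6 lists of the series. Each peak was given to the protein-coding gene with the transcription start site (TSS) nearest to its midpoint, within 500 kb, on the RefSeq annotations of GRCm38 and Sscrofa11.1. Genes were compared where the same symbol, letter case ignored, stood once in each annotation, which gave 14946 orthologs. All embryos were wild type and came from natural matings. Mouse forelimbs were taken at stage E11.5 and pig forelimbs on day 23 of gestation. The assay was ChIPmentation, a chromatin immunoprecipitation in which a transposase adds the sequencing adapters to antibody-bound chromatin, and the series also holds lists for H3K27ac and H3K4me3.

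The labels name 2 H3K4me1 samples per species, from forelimbs of littermates. For pig H3K4me1 the series' design text states 1 biological replicate with 2 technical replicates, so the sources differ on what the pig list rests on. Each list is a consensus over replicates with positions only. No spread between animals, no sequencing depth and no test between the species could therefore be had, and the differences below are differences between 2 lists. A whole forelimb was used, so fewer cells with a mark and less of the mark per cell cannot be told apart. Species goes together with gestational day, assembly and annotation, and their parts in any difference cannot be told apart.

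H3K4me1 is laid down at enhancers and on the flanks of promoters by the methyltransferases KMT2C and KMT2D. It is found at enhancers that are active, where H3K27ac accompanies it, and at enhancers that are poised or have been used before. In the limb bud, patterning genes such as Shh, Gli3, Grem1 and the Hox genes are controlled by enhancers that can lie far from the gene, and the pig limb differs from that of the mouse in forming fewer digits.

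Aligned sequence of the same locus shows what a shared and an unshared peak look like. Mouse and pig loci of each ortholog were aligned, and for 6 genes the highest scoring alignment of a kind was taken, outside exons and more than 5 kb from any TSS. The 120 ungapped columns with the most identical bases are printed 5′ to 3′, with capitals for bases identical in both species. These stretches were chosen for their identity and for their place inside or outside peaks, which are therefore no result. In the first 3 both copies lay inside H3K4me1 peaks. They come from Tbx5, the T-box factor that starts forelimb outgrowth, Gas1, a co-receptor for hedgehog ligands, and Osr1, a zinc-finger factor of limb connective tissue. The mouse copies lay 109, 157 and 83.4 kb from a TSS of the gene and the pig copies 122, 193 and 55.6 kb.
Tbx5 mouse, GRCm38, chr5:119944601-119944720, plus strand: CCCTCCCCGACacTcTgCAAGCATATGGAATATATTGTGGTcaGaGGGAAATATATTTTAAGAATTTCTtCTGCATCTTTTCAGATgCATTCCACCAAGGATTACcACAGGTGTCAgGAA
TBX5 pig, Sscrofa11.1, chr14:37898396-37898515, plus strand: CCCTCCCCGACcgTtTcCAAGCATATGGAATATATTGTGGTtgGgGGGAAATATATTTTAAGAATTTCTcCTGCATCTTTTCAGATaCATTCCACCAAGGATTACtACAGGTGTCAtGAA
Gas1 mouse, GRCm38, chr13:60020273-60020392, plus strand: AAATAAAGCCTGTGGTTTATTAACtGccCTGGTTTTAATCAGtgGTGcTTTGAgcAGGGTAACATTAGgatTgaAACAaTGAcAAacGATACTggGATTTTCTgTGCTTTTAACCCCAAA
GAS1 pig, Sscrofa11.1, chr10:28702528-28702647, minus strand: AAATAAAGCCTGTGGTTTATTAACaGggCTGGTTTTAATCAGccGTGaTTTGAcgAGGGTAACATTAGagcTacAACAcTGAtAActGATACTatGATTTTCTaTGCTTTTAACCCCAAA
Osr1 mouse, GRCm38, chr12:9657789-9657908, plus strand: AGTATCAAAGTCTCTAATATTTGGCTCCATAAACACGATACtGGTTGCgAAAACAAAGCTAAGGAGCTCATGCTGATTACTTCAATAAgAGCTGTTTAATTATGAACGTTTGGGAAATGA
OSR1 pig, Sscrofa11.1, chr3:118815728-118815847, plus strand: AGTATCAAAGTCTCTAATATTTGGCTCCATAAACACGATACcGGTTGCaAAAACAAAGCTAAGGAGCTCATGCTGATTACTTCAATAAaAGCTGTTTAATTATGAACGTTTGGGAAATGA
Of 120 bases 109 were identical at Tbx5, 100 at Gas1 and 117 at Osr1.

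A second stretch of Osr1 lay in a pig peak and in no mouse peak. Its 120 bases were identical at 116 positions, and the mouse copy was 3.65 kb from the nearest mouse H3K4me1 peak.
Osr1 mouse, GRCm38, chr12:9847861-9847980, plus strand: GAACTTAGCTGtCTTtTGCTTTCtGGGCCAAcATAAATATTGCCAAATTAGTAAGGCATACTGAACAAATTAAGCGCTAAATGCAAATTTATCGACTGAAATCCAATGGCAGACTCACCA
OSR1 pig, Sscrofa11.1, chr3:118949499-118949618, plus strand: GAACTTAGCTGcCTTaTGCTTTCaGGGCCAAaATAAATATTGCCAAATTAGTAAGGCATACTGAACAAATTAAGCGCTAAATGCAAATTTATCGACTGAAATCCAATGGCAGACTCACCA
In Hhip, Hand2 and Nubpl the stretch lay in a mouse peak and in no pig peak. Hhip encodes a membrane protein that binds and limits hedgehog ligands, Hand2 a factor of the posterior limb bud that activates Shh, and Nubpl a mitochondrial assembly factor of respiratory complex I. The pig copies were 11.09 kb, 3.63 kb and 160 kb from the nearest pig peak. The Nubpl stretch is in an intron of that gene in both species, and the other printed stretches lie outside genes annotated by RefSeq except the first one of pig OSR1, in an intron of the long noncoding RNA gene LOC106509893.
Hhip mouse, GRCm38, chr8:80263673-80263792, plus strand: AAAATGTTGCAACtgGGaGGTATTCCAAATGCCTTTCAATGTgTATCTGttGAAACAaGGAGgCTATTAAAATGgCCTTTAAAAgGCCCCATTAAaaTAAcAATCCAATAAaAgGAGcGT
HHIP pig, Sscrofa11.1, chr8:83846156-83846275, plus strand: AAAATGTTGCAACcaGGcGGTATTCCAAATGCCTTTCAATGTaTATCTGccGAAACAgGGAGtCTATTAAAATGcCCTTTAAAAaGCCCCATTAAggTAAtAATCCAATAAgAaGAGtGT
Hand2 mouse, GRCm38, chr8:57368269-57368388, plus strand: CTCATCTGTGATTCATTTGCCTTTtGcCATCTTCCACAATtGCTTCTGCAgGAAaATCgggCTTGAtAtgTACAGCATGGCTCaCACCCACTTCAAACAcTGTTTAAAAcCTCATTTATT
HAND2 pig, Sscrofa11.1, chr14:16505254-16505373, plus strand: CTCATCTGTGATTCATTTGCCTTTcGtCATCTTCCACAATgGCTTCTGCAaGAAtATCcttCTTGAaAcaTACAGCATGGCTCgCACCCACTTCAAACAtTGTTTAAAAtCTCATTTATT
Nubpl mouse, GRCm38, chr12:52187206-52187325, plus strand: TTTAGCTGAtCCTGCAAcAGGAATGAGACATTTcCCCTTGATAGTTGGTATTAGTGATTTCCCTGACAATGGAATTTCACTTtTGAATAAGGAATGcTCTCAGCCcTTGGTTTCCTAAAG
NUBPL pig, Sscrofa11.1, chr7:67935534-67935653, minus strand: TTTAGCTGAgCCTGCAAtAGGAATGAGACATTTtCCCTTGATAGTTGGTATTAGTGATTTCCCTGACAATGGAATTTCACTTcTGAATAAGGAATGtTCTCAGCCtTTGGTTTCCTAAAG

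Over all orthologs, 126 Mb of mouse noncoding sequence aligned to the pig locus of the same gene, 7.13% of the 1767 Mb searched. Of mouse bases inside H3K4me1 peaks 13.3% aligned, against 6.33% of bases outside them. Soft-masked repeats could not start an alignment, yet they count among the bases searched. These shares therefore mix conservation with repeat content, and the part of repeats was not tested. Conserved sequence inside a mouse peak lay in a pig peak more often than conserved sequence beside it. More than 5 kb from any TSS (distal), 45.3% of aligned bases in a mouse peak were in a pig peak, against 16.1% of aligned bases outside mouse peaks, a ratio of 2.81. Within 5 kb of a TSS the shares were 60.2% and 23.5%. Read from the pig side, 39.0% of aligned distal bases in a pig peak were in a mouse peak. Thus 9514 kb of distal aligned sequence was in a mouse peak alone, 12300 kb in a pig peak alone and 7863 kb in both. Base identity was alike in the 4 combinations: 79.6% where both species had a peak, 78.6% where only mouse did, 78.6% where only pig did and 78.0% where neither did. Of 3829 orthologs with at least 500 distal aligned bases both inside and outside mouse peaks and some in a pig peak, 2776 (72.5%) had the higher pig share inside, and the median difference was 20.1 percentage points (quartiles -1.72 and 40.7). These shares are descriptions, since bases of a locus are not independent, and the alignment found only sequence alike enough to pass an E value of 1e-10.

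The pig list was denser. Peaks covered 238 Mb (8.74%) of the assembled mouse chromosomes and 317 Mb (13.0%) of the pig chromosomes. Single peaks were of like width, with 10th, 50th and 90th percentiles of 1446, 3392 and 5264 bp in mouse and 947, 3033 and 5208 bp in pig. From one peak to the next lay a median of 12183 bp in mouse and 6980 bp in pig, while the median width was not larger in pig. Joining peaks under 1 kb apart left 67244 mouse and 96451 pig peaks. Introns held 54.9% of mouse peak midpoints (95% Wilson interval 54.5 to 55.2) and 55.9% of pig midpoints (55.6 to 56.2), while introns made up 40.3% and 50.6% of the genomes. Sequence outside annotated genes held 37.4% in both species, while it made up 55.2% of the mouse and 45.2% of the pig genome. Wilson intervals cover counting error only. Peaks were richer in G and C than their genomes, with a median of 45.4% against 41.7% over the mouse genome and 47.6% against 41.8% over the pig genome.

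Most H3K4me1 peaks lay away from TSSs and carried neither of the other marks. The median distance from a peak to the nearest coding TSS was 29.4 kb in mouse and 38.8 kb in pig. Peaks from 100 to 500 kb away made up 22.2% (21.9 to 22.5) of the mouse list and 26.2% (25.9 to 26.4) of the pig list, and those from 1 to 5 kb away 18.4% and 14.9%. Some 20.3% of mouse and 18.2% of pig peaks overlapped H3K27ac, and 70.4% and 74.98% overlapped neither H3K27ac nor H3K4me3. 

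At the 5′ ends of orthologs, H3K4me1 formed a pair of shoulders around a dip. In mouse 17.9% of orthologs had a peak over the 5′ end itself, 27.9% at 1.1 kb upstream and 53.4% at 1.8 kb downstream. In pig the shares were 23.4% at the 5′ end, 33.1% at 1.1 kb upstream and 58.3% at 1.7 kb downstream. The shoulders belonged to 5′ ends with an H3K4me3 peak, the mark of active promoters, where the downstream maximum was 63.4% of 11474 mouse orthologs and 67.5% of 11015 pig orthologs. Without H3K4me3 there was a single low maximum, 23.9% of 3472 mouse orthologs at 0.6 kb and 35.03% of 3931 pig orthologs at 0.8 kb downstream.

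**Figure D1:**
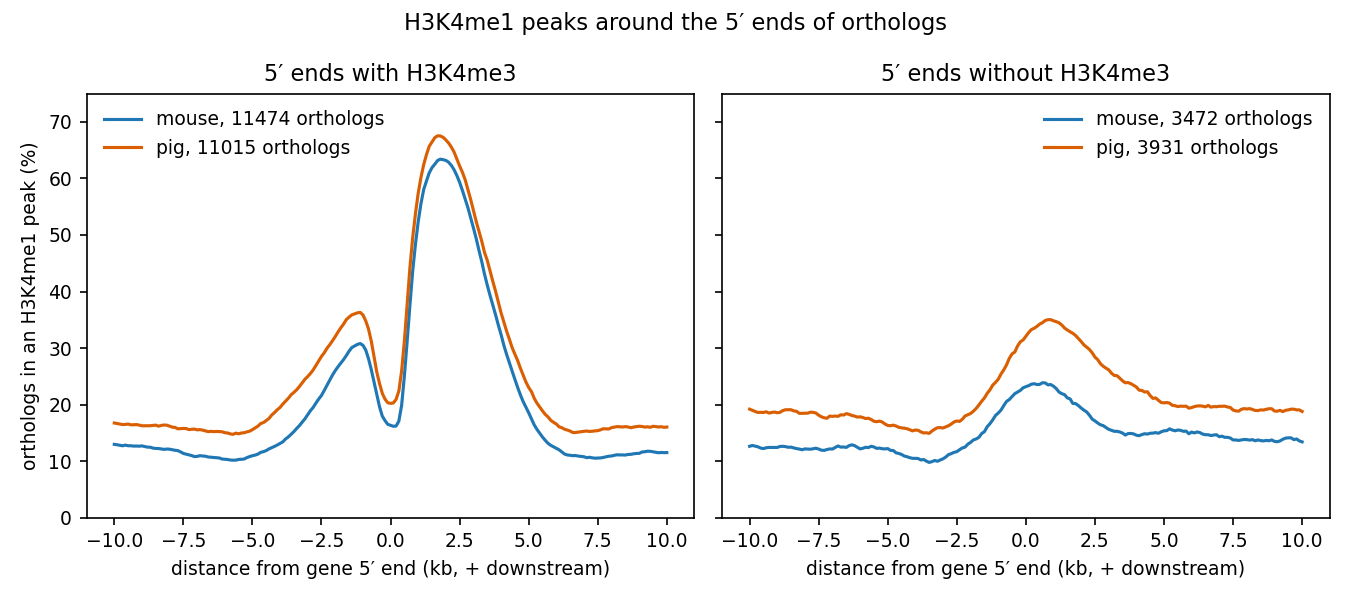
Share of orthologs (%, y axis) that lie in an H3K4me1 peak at each distance from the gene's 5′ end (kb, x axis, positive downstream), for 5′ ends with H3K4me3 (left) and without it (right), mouse in blue and pig in orange. With H3K4me3 the curves dip at the 5′ end and reach 63.4% in mouse and 67.5% in pig downstream, and without it they have 1 low maximum of 23.9% and 35.03%.

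The X chromosome had little H3K4me1 in both species. Peaks covered 1.57% of the mouse X against 9.56% of mouse autosomes, and 3.47% of the pig X against 13.8% of pig autosomes. H3K27ac (0.678% against 2.46% in mouse, 0.550% against 1.46% in pig) and H3K4me3 (1.04% against 2.34%, 0.872% against 1.35%) were lower there too. The 522 orthologs on the X in both species had a median of 2.15 kb of H3K4me1 in mouse and 3.35 kb in pig, against 6.399 and 8.31 kb for the 14418 on autosomes in both. H3K4me1 within 1 kb of a 5′ end was called at 29.3% of X orthologs in mouse and 38.3% in pig, against 59.3% and 66.6% on autosomes. H3K4me3 at 5′ ends was nearly as frequent on the X, at 73.8% and 71.5%, as on autosomes, at 76.9% and 73.8%. The sex of the embryos is not in the labels, and its part was not tested. Among autosomes, mouse chromosome 11 (12.5%) and pig chromosome 12 (22.9%) were covered most.

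**Figure D2:**
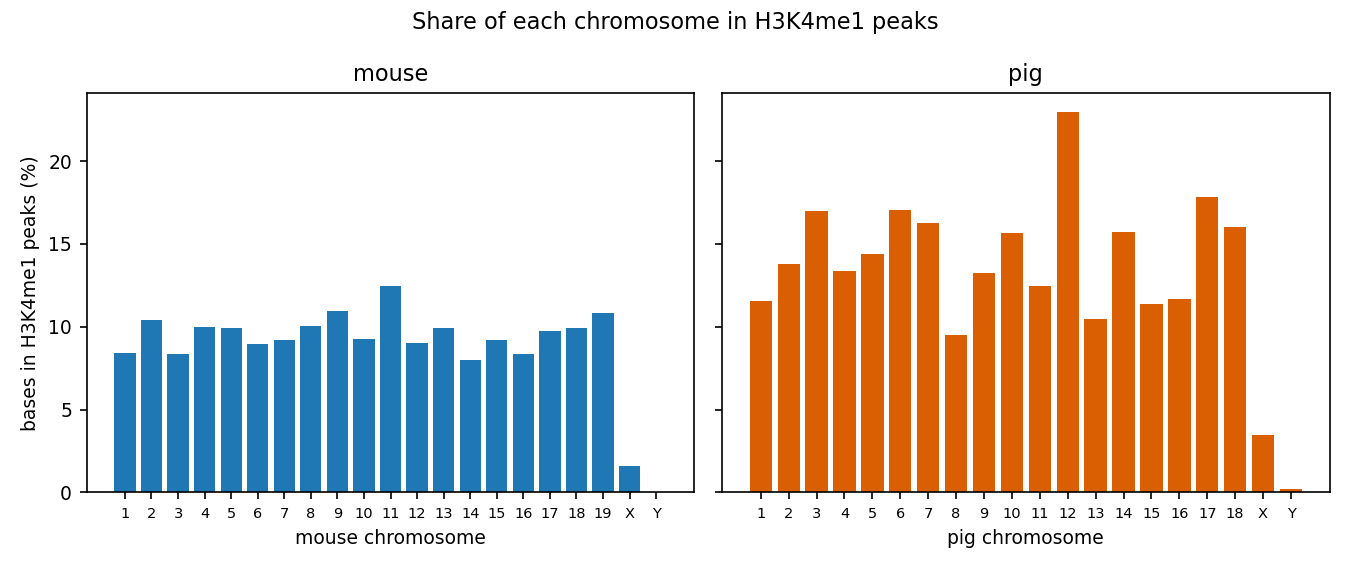
Share of bases in H3K4me1 peaks (%, y axis, from 0) for each assembled chromosome (x axis) of mouse (left, blue) and pig (right, orange). The X chromosomes, at 1.57% and 3.47%, lie below every autosome, and pig chromosome 12 is highest at 22.9%.

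Per ortholog, the peaks given to a gene were summed as their number and as kilobases of peak. The median ortholog had 2 peaks and 6.15 kb in mouse and 3 peaks and 8.01 kb in pig. No peak was given to 2052 orthologs in mouse and 1588 in pig, 656 of them in both. Both measures grew with the gene's territory, which runs from the next coding TSS on one side to the next on the other. From the shortest to the longest quintile of territories, the median length rose from 2.52 to 30.7 kb in mouse and from 3.05 to 39.98 kb in pig. Across orthologs, Spearman's rho between mouse and pig was 0.681 for kilobases and 0.685 for numbers, and 0.474 and 0.457 once territory in both species was taken out. Genes are not independent replicates, and all of them share the same 2 lists.

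The genes with most H3K4me1 were largely shared. Of the 1000 orthologs with most kilobases in each species 660 (66%) were the same, and of the top 100, 57. Sox11, a SoxC factor of mesenchymal progenitors, had 66 peaks and 230 kb in mouse and 101 peaks and 325 kb in pig. Sox9, the master regulator of cartilage, had 59 peaks and 215 kb against 81 and 265 kb. The other genes with the lowest summed rank were Tenm3, a cell adhesion receptor, the transcription factors Zfhx3 and Rora, the adhesion protein gene Ntm, the splicing factor gene Rbfox1, Mgmt, which repairs alkylated DNA, Jarid2, a cofactor of the polycomb complex PRC2, and Auts2. All 10 lie in territories of over 1 Mb in both species.

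**Figure D3:**
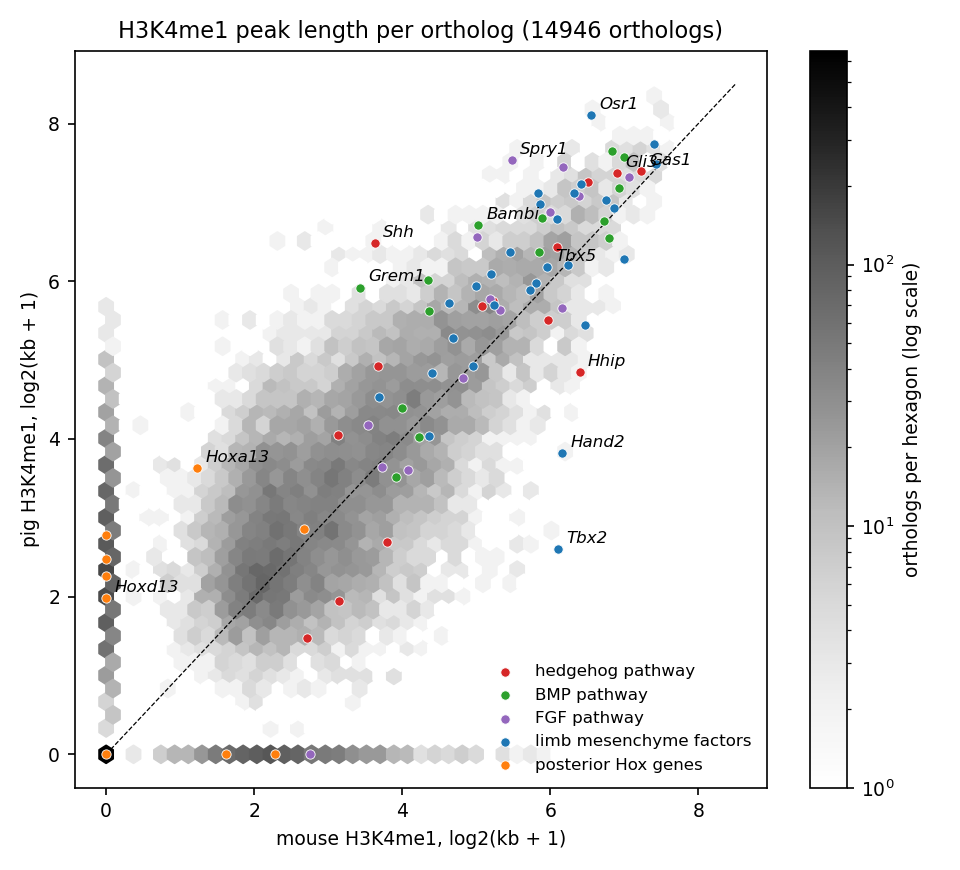
H3K4me1 peak length per ortholog, log2(kb + 1), in mouse (x axis) and pig (y axis); grey hexagons count the 14946 orthologs on a log scale, coloured points are members of 5 gene lists and the dashed line marks equal length. Shh, Grem1, Osr1 and Spry1 lie above the line and Hhip, Hand2 and Tbx2 below it.

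To allow for territory, log2((pig kb + 1)/(mouse kb + 1)) was fitted on log2 territory in both species over all orthologs. The slopes were -0.359 on mouse and 0.373 on pig territory, so territory is taken out by its average effect and not in proportion to its length. The residual is called the corrected difference (log2, pig minus mouse). It is centred on the mean of all orthologs, with a median of -0.03, and the greater density of the pig list as a whole is taken out. Orthologs with 1 or more, a factor of 2, are called pig-leaning and those with -1 or less mouse-leaning. By kilobases 2692 orthologs (18.0%) were pig-leaning, 2570 (17.2%) mouse-leaning and 9684 (64.8%) neither. By both kilobases and number of peaks, 1387 (9.28%) and 1561 (10.4%) were past the same thresholds. The last orthologs inside and outside the pig threshold were Mettl6 (1.00) and Stk36 (0.999), and Terf2 (-0.999), with 10.9 and 5.98 kb, was the last outside the mouse threshold, next to Tnfrsf25 with 8.52 and 4.93 kb.

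Many of these calls rest on few peaks. Of pig-leaning orthologs 44.6% had 3 peaks or fewer in both species together, and of mouse-leaning ones 48.6%. The SD of the corrected difference across orthologs was 1.46 with up to 3 peaks, 1.29 with 4 to 9, 1.11 with 10 to 29 and 0.810 among the 1123 orthologs with 30 or more, of which 10.9% were pig-leaning and 5.16% mouse-leaning. The annotated neighbours also moved with the calls: both neighbouring genes had the same symbols in both species for 59.3% of orthologs that leaned neither way, 50.5% of pig-leaning and 52.5% of mouse-leaning ones.

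The other marks moved with H3K4me1 in part. The same corrected difference of H3K27ac had a median of 0.35 in pig-leaning orthologs, 0.11 in orthologs leaning neither way and -0.30 in mouse-leaning ones. Across orthologs, rho between the corrected differences of H3K4me1 and of H3K27ac was 0.223, and 0.174 for H3K4me3. Of aligned distal bases, 50.1% inside and 17.1% outside mouse peaks were in a pig peak in pig-leaning orthologs, a ratio of 2.94, and 24.5% and 5.69% in mouse-leaning ones, a ratio of 4.31. The lean was defined by these same peaks, so the order of the shares is a description.

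Of 18 gene lists, the limb lists other than the posterior Hox genes had a higher median length of H3K4me1 than all orthologs in both species. The medians of all orthologs were 6.15 kb in mouse and 8.01 kb in pig. The heart, neuronal, muscle precursor, endothelial, limb ectoderm and neural crest lists lay above them in both species too, so this was not particular to the limb lists. Most lists had a median corrected difference near that of all orthologs, -0.03. The posterior Hox genes had a median of 0 kb in mouse and 3.81 kb in pig, below the medians of all orthologs. The limb mesenchyme factors, 28 transcription factors and regulators of the limb bud, had a median of 59.1 kb in mouse and 69.3 kb in pig, and all 28 lay above the fit of length on territory in both species, against 8607 and 8651 of all 14946 orthologs. Of these 28 genes 18 were among the 1000 orthologs with most H3K4me1 in mouse, 16 in pig and 14 in both. Housekeeping genes had 5.57 and 8.002 kb. Genes of tissues outside the limb had 3.09 and 3.43 kb (liver), 7.01 and 11.9 kb (heart) and 10.1 and 15.2 kb (neuronal).

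**Figure D4:**
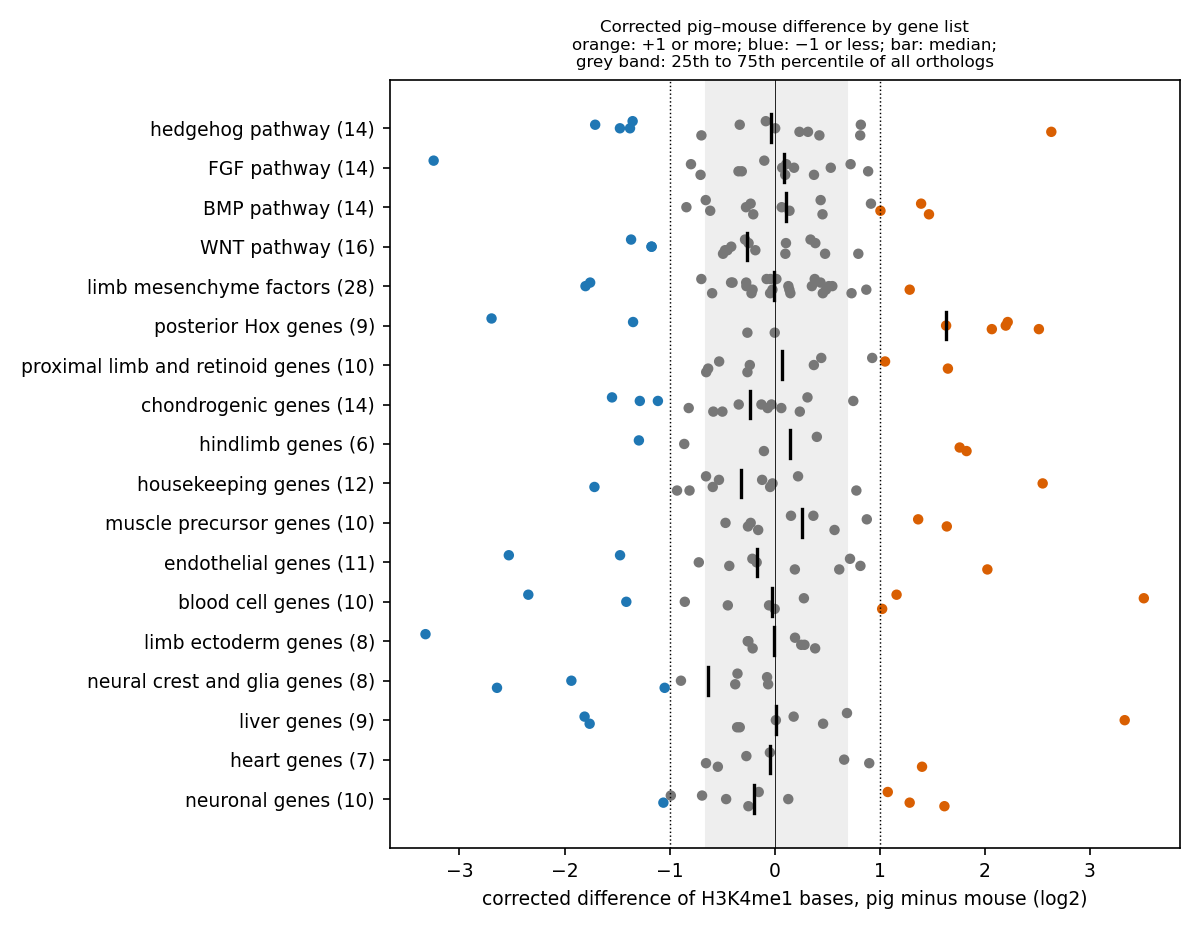
Corrected pig minus mouse difference of H3K4me1 bases (log2, x axis) for each member of 18 gene lists (y axis, number of orthologs in parentheses); orange points are 1 or more, blue points -1 or less, black bars are medians and the grey band spans the 25th to 75th percentile of all orthologs. All medians but those of posterior Hox genes (1.63) lie inside the band.

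Among hedgehog pathway genes, the ligand gene Shh leaned to pig and 4 other members to mouse, against backgrounds of 18.0% and 17.2%. Shh had 2 peaks with 11.4 kb in mouse and 28 peaks with 88.7 kb in pig. Its territory was of like length, 876 and 706 kb, its neighbours had the same symbols, and its corrected difference of 2.63 lay between 2.18 and 3.36 in all 13 alternatives of processing. The 95% exact binomial interval of the number ratio, pig over mouse, was 1.82 to 6.92 on the log2 scale and covers counting error only. This ratio is not corrected for territory or for the denser pig list. H3K27ac at Shh was short in both, 0.662 kb in mouse and 1.23 kb in pig. Of 18.9 kb of aligned sequence at Shh, 1.962 kb lay in peaks of both species, 0.243 kb in a mouse peak alone and 5.09 kb in a pig peak alone. Among distal alignments at Shh outside exons that lay in a pig peak and in no mouse peak, the highest scoring was 850 bases long in mouse. Its 120 ungapped columns with the most identical bases were 9.29 kb from the nearest mouse H3K4me1 peak. Lmbr1, a neighbour whose intron carries the limb enhancer of Shh, is counted as its own gene and was named after its values had been seen. It had 4 peaks with 10.9 kb in mouse and 6 with 18.6 kb in pig, a corrected difference of 0.49. Among distal alignments of Lmbr1 outside exons, only those inside peaks of both species were considered, so their place in peaks is no result. The highest scoring of them was intronic, 862 bases long and 81.6% identical. Its peaks were chr5:29313094-29317897 in GRCm38 and chr18:1851400-1856893 in Sscrofa11.1.

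Receptors and co-receptors of the pathway were more alike. Ptch1, the receptor gene that hedgehog signalling itself induces, had 36.6 and 52.9 kb (-0.08). Gas1 had 149 and 167 kb (-0.33), and 11.8 of its 27.4 kb of aligned sequence was in peaks of both species. The transducers Gli3, the main hedgehog repressor of the limb (118 and 165 kb, 0.32) and Gli2 (90.2 and 152 kb, 0.43) did not lean either. Mouse-leaning members were Hhip, with 20 peaks and 83.3 kb in mouse and 11 peaks and 27.7 kb in pig (-1.47), the signal transducer Smo (12.8 and 5.46 kb, -1.38), the effector Gli1 (5.56 and 1.78 kb, -1.35) and Kif7, a ciliary regulator of GLI proteins (7.89 and 2.85 kb, -1.71). The interval of the uncorrected number ratio for Hhip, -2.07 to 0.27, included 0, and the corrected difference of its number was -0.97. By covered share of the territory the corrected difference of Hhip was -0.67, and Gli1 had 1 peak in each species. Each of the 4 mouse-leaning calls was lost in 2 or 3 alternatives, with values down to -0.76 for Smo, -0.58 for Kif7 and -0.19 for Gli1.

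BMP signalling, which shapes digits and interdigital tissue, had a median of 44.1 kb in mouse and 87.3 kb in pig. It had 3 pig-leaning members of 14, near the 18.0% of all orthologs, and no mouse-leaning one. Bambi, a decoy receptor, had 9 peaks with 31.5 kb in mouse and 33 with 104 kb in pig (1.47). Grem1, the secreted antagonist that links SHH to the apical ridge, had 2 peaks with 9.73 kb and 21 with 59.6 kb (1.39), but its annotated territory was 144 kb in mouse and 638 kb in pig. Its difference was -0.20 when peaks were assigned within 100 kb and -0.44 with the 5′ end of each gene as the only TSS. Nog had 6 peaks with 19.3 kb and 18 with 63.5 kb (1.01), and 0.04 with the 5′ end alone. The intracellular inhibitors Smad6 (56.7 and 81.8 kb, 0.07) and Smad7 (121 and 145 kb, -0.23) did not lean. The ligand genes did not lean: Bmp4 had 105 and 108 kb (-0.27), Bmp2 110 and 92.9 kb (-0.61) and Bmp7 58.2 and 111 kb (0.44). Bmp5, at 0.92, lay close to the pig threshold and passed it in 2 of 12 alternatives, with values from 0.26 to 1.20.

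FGF pathway genes had 1 mouse-leaning member of 14, against 17.2% of all orthologs, and no pig-leaning one. It was the ligand gene Fgf17, with 1 mouse peak of 5.74 kb and none in pig (-3.25, and -0.51 with distal peaks only). Fgf10, the mesenchymal ligand that sustains outgrowth, had 70.4 and 49.8 kb (-0.80), and Fgf8, the ligand of the apical ridge, 12.2 and 11.6 kb (-0.34). The feedback inhibitor genes all had more in pig: Spry1 had 43.8 and 185 kb (0.89), Spry2 71.03 and 174 kb (0.18), Spry4 31.2 and 93.2 kb (0.72) and Dusp6 62.7 and 116 kb (0.37). None of the 4 passed the threshold after the correction for territory, and the territory of Spry1 was 304 kb in mouse and 1457 kb in pig. In the WNT pathway 3 of 16 were mouse-leaning, near the 17.2% of all orthologs. They were the ligand gene Wnt6 (13.3 and 6.61 kb, -1.37), the inhibitor Dkk1 (55.1 and 32.5 kb, -1.17) and the co-receptor Lrp6 (33.3 and 19.7 kb, -1.17). None was pig-leaning. The smallest sizes of these 3 over the alternatives were -0.31, -0.70 and -0.94. Wnt5a, a ligand of the distal limb, had 128 and 235 kb (0.39).

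**Figure D5:**
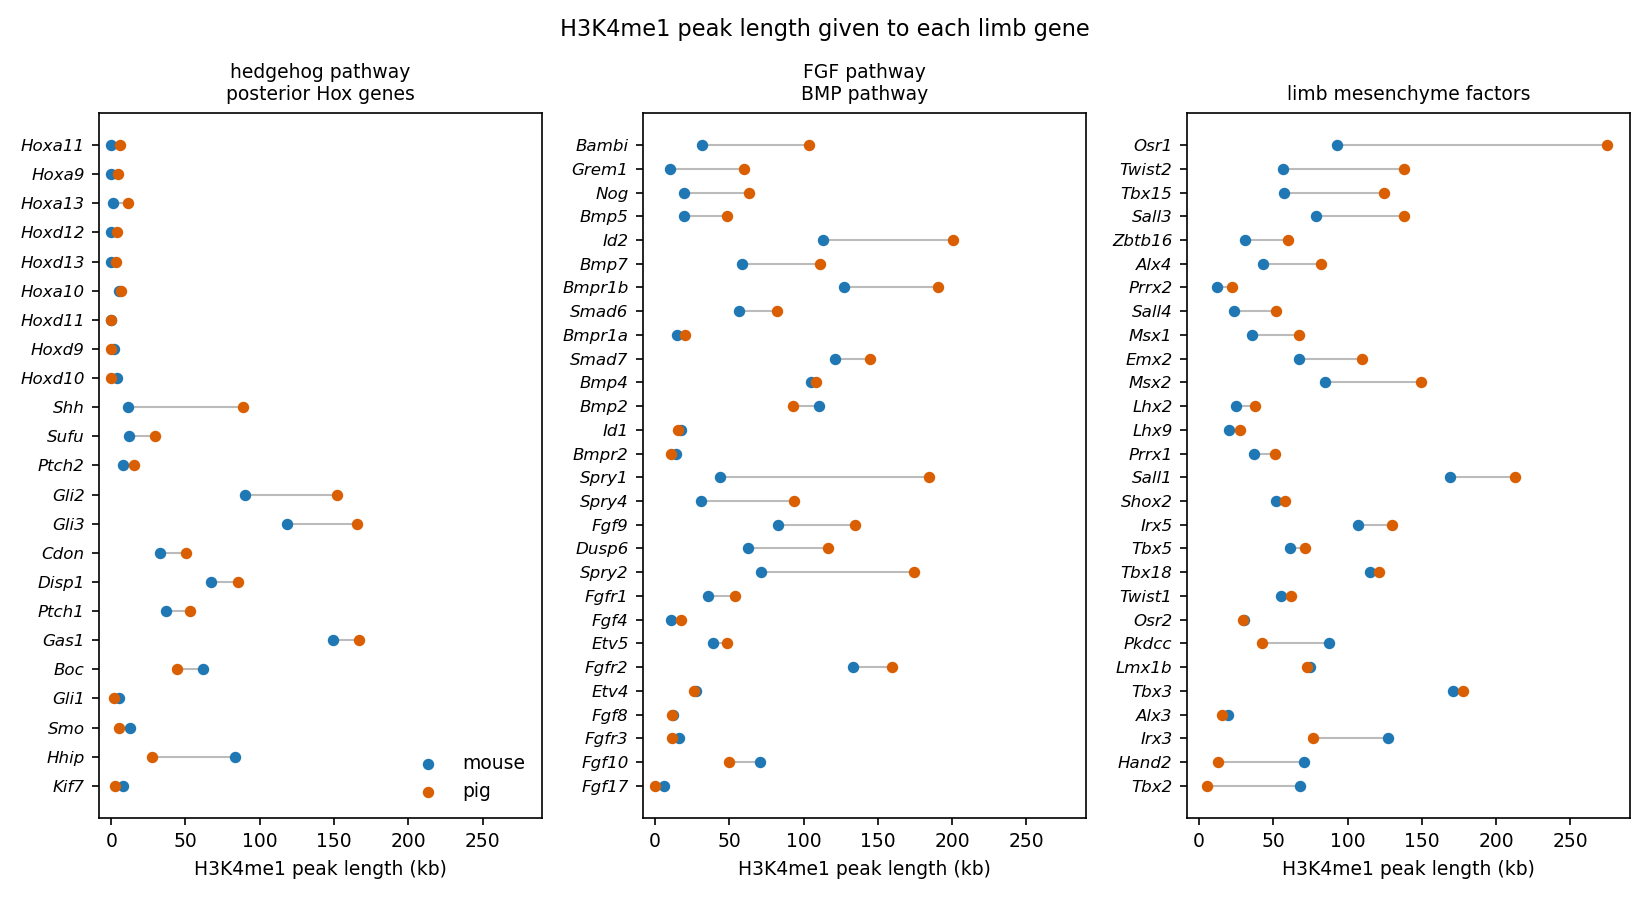
H3K4me1 peak length (kb, x axis) given to each gene of 5 limb lists (y axis, ordered within each list by corrected difference, the Hox genes above the hedgehog genes and BMP above FGF), mouse in blue and pig in orange. The points of Osr1 (92.8 and 274 kb), Shh (11.4 and 88.7 kb) and Hand2 (70.6 and 13.1 kb) lie apart, while those of Tbx5, Tbx3 and Gas1 lie close.

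Of the limb mesenchyme factors 25 of 28 leaned neither way, against 64.8% of all orthologs. The 2 shares are not at like numbers of peaks, since the list had medians of 17 peaks in mouse and 22 in pig. Of all orthologs with 10 to 29 peaks 16.3% were pig-leaning and 12.8% mouse-leaning, and with 30 or more 10.9% and 5.16%. Tbx5 had 18 peaks with 61.0 kb in mouse and 21 with 71.6 kb in pig (-0.08), and Tbx3, a T-box factor of the anterior and posterior margins, 45 with 171 kb and 54 with 178 kb (-0.41). Sall1, a zinc-finger factor of limb patterning, had 169 and 213 kb (-0.02). Osr1 leaned to pig, with 29 peaks and 92.8 kb in mouse and 80 peaks and 274 kb in pig (1.28), and of its 73.6 kb of aligned sequence 18.8 kb lay in peaks of both species, 6.42 kb in a mouse peak alone and 24.99 kb in a pig peak alone. Counting all peak bases between the neighbouring TSSs gave 0.50 and assignment within 100 kb 2.89. Hand2 leaned to mouse, with 19 peaks and 70.6 kb against 4 and 13.1 kb (-1.76), and Tbx2, which encodes a T-box repressor, with 19 peaks and 67.8 kb against 1 and 5.09 kb (-1.80). Both had far shorter territories in pig, 162 kb against 905 kb for Hand2 and 12.2 kb against 533 kb for Tbx2. With assignment within 100 kb Hand2 had -0.05, and the covered share of the territory gave 1.71 for Tbx2.

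Posterior Hox genes, which pattern the forearm and digits from dense clusters, had short lengths of H3K4me1. Mouse lengths ranged from 0 to 5.38 kb and pig lengths from 0 to 11.4 kb over the 9 genes. Relative to the fit of length on territory they were low in mouse alone. Their median residual from that fit (log2) was -1.22 in mouse and 0.85 in pig, against 0.22 and 0.25 for all orthologs. Above the fit lay 3 of the 9 in mouse and 6 in pig. Hoxa11 had no peak in mouse and 1 of 5.87 kb in pig (2.51), Hoxa13 had 1 with 1.35 kb and 4 with 11.4 kb (2.20), and Hoxd13 none and 1 of 2.94 kb (1.63). Hoxa9 (2.22) and Hoxd12 (2.07) were also pig-leaning, and Hoxd10 (-2.69) and Hoxd9 (-1.35), with 1 peak each in mouse and none in pig, mouse-leaning, 5 and 2 of 9 against 18.0% and 17.2% of all orthologs. At most 4 peaks per species stand behind each of these values. Without peaks near TSSs, Hoxa9, Hoxd12 and Hoxd13 had -0.31, -0.25 and -0.38. Hoxd9 had -0.06 among the wider 50% of peaks and Hoxd10 -0.59 over all bases between the neighbouring TSSs, whereas Hoxa11 and Hoxa13 were past the threshold in all alternatives run on them. Of H3K27ac, Hoxa13 had 11.9 kb in mouse and 3.64 kb in pig, and Hoxa11 6.61 and 2.09 kb.

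Of proximal and retinoid genes, Meis2, a homeobox factor of the proximal limb, leaned to pig (40.2 and 76.6 kb, 1.05, and 0.35 over all bases between the neighbouring TSSs), as did Pbx2 with 0 and 2.88 kb (1.65, but -0.32 with distal peaks only and -0.54 among the wider 50% of peaks), 2 of 10 against 18.0% of all orthologs. Meis1 had 145 and 233 kb (0.37). Chondrogenic genes had 3 mouse-leaning members of 14, near the 17.2% of all orthologs, and no pig-leaning one. They were Ihh, the hedgehog ligand of growing cartilage (25.6 and 8.57 kb, -1.55, and -0.71 over all bases between the neighbouring TSSs), Gdf5, the joint ligand (8.23 and 4.07 kb, -1.28), and Runx2, the bone regulator (94.0 and 56.9 kb, -1.11). The difference of Gdf5 was 1.74 among the wider 50% of peaks and that of Runx2 0.43 with the 5′ end alone. Col2a1, the collagen of cartilage, had 18.2 and 25.6 kb (0.06). 

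Many markers of other cells that a dissected limb can hold had H3K4me1. All 10 muscle precursor and all 11 endothelial genes had a peak in both species, while the blood cell, ectoderm and neural crest lists each held members with none in at least 1 species. Having a peak was common, since only 13.7% of all orthologs had none in mouse and 10.6% in pig. Muscle precursor genes had a median of 14.3 kb in mouse and 26.7 kb in pig, with 2 of 10 pig-leaning, near the 18.0% of all orthologs. These were Pax7 (15.4 and 53.5 kb, 1.37) and Myog (3.62 and 16.6 kb, 1.64), at 0.73 and 0.97 over all bases between the neighbouring TSSs. Endothelial genes had 12.5 and 17.3 kb, with Flt1, a VEGF receptor, at 3 peaks and 12.5 kb against 22 and 76.6 kb (2.02) and Tek, the angiopoietin receptor, at 11.6 against 1.55 kb (-2.53). Over all such bases Flt1 had 0.74. Blood cell genes had 4.05 and 11.3 kb, against 6.15 and 8.01 kb for all orthologs, with Runx1 at 163 and 83.0 kb (-1.41) and Spi1, the myeloid factor, at 0 and 12.6 kb (3.51). Neural crest and glia genes had 15.8 and 10.1 kb, with a median corrected difference of -0.63 and 3 of 8 mouse-leaning, against 17.2% of all orthologs. Among them were Foxd3 (39.8 and 12.9 kb, -1.93) and Erbb3 (-1.05), at -0.72 and -0.48 over all bases between the neighbouring TSSs. Ectoderm genes had 15.4 and 17.5 kb. The shares of these cells in the 2 dissections are not known from peak lists, and their part in the differences was not tested. Of the 6 hindlimb genes, Tbx4 had 41.7 and 47.1 kb, Pitx1 30.7 and 57.7 kb and Isl1 49.7 and 24.99 kb, with H3K27ac of 0 and 0.691 kb at Pitx1. The other 3 had little of the mark: Hoxc9 had 2.599 and 0.91 kb, Hoxc10 0 and 3.59 kb and Hoxc11 0 and 3.13 kb. Of the 6, 4 lay above the fit of length on territory in mouse and 3 in pig.

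The extremes were taken among orthologs with at least 50 kb of territory in both species that passed the threshold by kilobases and by number. Kcnk9, a potassium channel gene, was highest, with no peak in mouse and 22 peaks with 91.6 kb in pig (6.09, and 2.97 over all bases between the neighbouring TSSs). Loxl2, which cross-links collagen, had 0 and 47.7 kb (5.20), Tfap2d 0 and 30.7 kb (4.80) and Tmem229a 0 and 28.7 kb (4.75). Mamld1, Kcnk16, Gabrg3, Plppr5, Rubcnl, Frmd3, Slc6a15 and Ube3c made up the 12. All 12 had no mouse peak given to them, yet 10 had some mouse peak bases between the neighbouring TSSs, from 3.26 to 19.5 kb, that were nearer to another TSS. Only Rubcnl (0 and 37.0 kb, 4.84) had the same neighbours on both sides in the 2 annotations.

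At the other end, Nubpl had 14 peaks with 50.4 kb in mouse and none in pig (-5.98), with the same neighbours and territories of 476 and 453 kb. Between its neighbouring TSSs pig had 50.0 kb of peak, nearer to other genes, and the difference over all such bases was -0.81. Calb1, a calcium-binding protein gene, had 28.6 kb in mouse and 0 in pig (-4.97), and Scel, an epithelial envelope protein gene, 20.7 kb and 0 (-4.87), both with the same neighbours and with 7.38 and 4.16 kb of pig peak between them. Pde1a, a phosphodiesterase gene, had 26.5 kb and 0 (-5.23), and Col4a4, a basement membrane collagen gene, 37.9 kb and 0 (-5.12). Rpl14, Mroh9, L1td1, Ap4s1, Spesp1, Col6a6 and Atp7a completed the list, all with other neighbours on at least 1 side. L1td1, Ap4s1 and Atp7a shared no neighbour at all, and L1td1 lies on chromosome 4 in mouse and on the X in pig. Among the pig extremes Kcnk16, Gabrg3 and Frmd3 shared none either, as did 7.37% of all orthologs. Whether these symbols mark the same locus in both species was not tested.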

How the data were processed

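ChIPmentation of H3K4me1, H3K27ac and H3K4me3 in mouse and pig forelimbs gave 6 consensus peak lists. The authors deposited chromosome, start and end of each peak, with no score, signal, count or p-value; these coordinates are the only values. Per the series' design text, reads were cropped to or sequenced at 50 bp, aligned to GRCm38/mm10 or Sscrofa11.1/susScr11, and peaks called in a broad mode at an irreproducible discovery rate below 0.01. The submitters' processing notes name Bowtie2 2.3.5, SAMtools 1.9, Trimmomatic 0.39, deepTools 3.5 and FastQC 0.11.9. The peak caller was not given in the sources used here. The depth per sample is unknown.

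Peaks were assigned by midpoint in Python 3.11.15 with numpy 2.4.6, pandas 2.3.3 and scipy 1.17.1. Territory was corrected by least squares over all orthologs with a pseudocount of 1 kb. The correction was tried on simulated data with changes planted only in orthologs of long territory in both species. That trial does not cover changes at genes of short territory. Loci, neighbouring TSS to neighbouring TSS and at most 500 kb on each side, were aligned with blastn 2.17.0. Soft-masked repeats could not start an alignment but stayed in the counts of bases searched. Coding exons were left out of the counts. Sequences are those of the 2 assemblies from RefSeq. Genes named are members of 18 lists, the 12 highest and 12 lowest corrected differences under the stated filter and the 10 with the lowest summed rank; Lmbr1, and the 4 orthologs next to the thresholds, stand outside this rule. Of the lists, Cyp26b1, Rarg, Hprt, B2m, Trp63, Krt14, Serpina1 and Myh6 did not match in both annotations. The members and lists were chosen with earlier results of these data known. Of the peaks, 4 in mouse and 952 in pig lay outside assembled chromosomes.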

Additional observations from a re-analysis of the deposited data

Results flagged for a closer look

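H3K4me1 peaks that no comparison of genes used were 1708 in mouse and 3059 in pig. They had no coding TSS within 500 kb or lay on sequences without a coding gene, 4 in mouse and 24 in pig. They were 3254 bp (mouse) and 2700 bp (pig) wide at the median, against 3394 and 3042 bp for peaks given to a gene. H3K27ac overlapped 6.38% of them in mouse and 6.80% in pig, against 20.6% and 18.5% of peaks given to a gene. Together those beyond 500 kb covered 5498 kb in mouse and 8593 kb in pig.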

How the results depend on the processing

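With 13 alternatives, 11 planned and 2 chosen after seeing the data (both neighbours shared; all peak bases between the neighbouring TSSs), pig-leaning orthologs numbered 1396 to 3927 and mouse-leaning ones 1325 to 3019. The lowest counts, 1396 and 1325, came with the 8456 orthologs whose neighbours are shared, 16.5% and 15.7% of them; among the alternatives that kept all 14946 orthologs the counts were within 1.5 times. The partial rho of 0.474 became 0.433 with distal peaks only, 0.400 with the wider 50% of peaks, 0.457 with as many of the widest pig peaks as mouse has, 0.526 among the 10099 orthologs with a peak and 50 kb of territory, 0.490 with shared neighbours and 0.532 with all bases between the neighbouring TSSs. Of 243 named genes 78 were past the threshold, 31 of these in every alternative run on them and 64 with the same sign throughout. Values of called genes that changed sign were, within 100 kb, Grem1 (-0.20) and Slc6a15 (-0.57); with distal peaks only, Hoxa9 (-0.31), Hoxd12 (-0.25), Hoxd13 (-0.38), Pbx2 (-0.32), Hoxc10 (-0.42), Hoxc11 (-0.35), Rpl13a (-0.94) and Tnni3 (-0.46); with the wider 50% of peaks, Hoxd13 (-0.56), Pbx2 (-0.54), Gdf5 (1.74) and Tnni3 (-0.63); with the 5′ end alone, Grem1 (-0.44), Runx2 (0.43) and Tnni3 (-0.52); by covered share, Tbx2 (1.71); and over all bases between the neighbouring TSSs, Rpl13a (-0.28), Ttr (0.28) and Tnni3 (-0.04). The cause was not tested. No paired analysis was possible because each species and mark has 1 consensus list, and for the same reason no replicate could be left out. The alignment was run with 1 setting. Calls on 3 peaks or fewer rest on little, and a gene with no peak given to it can still have peaks nearer to another TSS.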
